A study of Mus musculus with 60 samples.

Results

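The hippocampal RNA-seq libraries described here, 16 in all, were chosen by a measured RNA level and compared by how much of 5 activity-induced messenger RNAs they held, 8 libraries with much and 8 with little. Each library was scored by its mean log2(RPKM + 0.5) of Fos, Junb, Egr1, Arc and Npas4, where RPKM is reads per kilobase of transcript scaled for depth. Within each genotype the 4 libraries with the highest and the 4 with the lowest score were taken, which gave 16 of the 18 RNA libraries and 16 of the 60 samples of the series. The remaining samples of the series, on chromatin, were not analysed here. All libraries came from frozen hippocampus of 30-week-old mice on a mixed background of equal parts CBA and C57BL/6, 9 independent biological replicates per genotype, with no treatment named in the labels. Wild-type (WT) mice were compared with R6/1 mice, a transgenic model of Huntington's disease that carries the first exon of human HTT with an expanded CAG repeat. The transgene is expressed throughout the body, so the model is not limited to one cell type.

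Neurons that fire let calcium in through NMDA receptors and voltage-gated channels. Calcium and MAP kinase signals then reach transcription factors that already sit at promoters, such as CREB, SRF and MEF2, and within minutes a first wave of genes is transcribed without new protein. Many of these rapid genes encode transcription factors (Fos, Junb, Egr1, Npas4), which drive a slower wave of synaptic and secreted proteins, and others encode phosphatases that switch the kinases off again. The RNA of the rapid genes decays quickly, so its level in tissue reads out what the cells met shortly before collection, handling of the animal included.

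The split was made from the RNA of the same libraries. The high and low libraries are therefore samples set apart by a measurement and carry no treatment, and an adjusted p below says only how far a gene went along with the 5 score genes. The scores of the WT high libraries were 5.29, 5.22, 5.06 and 4.64 in replicates 2, 5, 8 and 3, and those of the WT low libraries 4.51, 4.33, 4.22 and 3.43 in replicates 7, 6, 9 and 4. In R6/1 the high libraries scored 4.45, 4.02, 3.80 and 3.76 in replicates 1, 3, 7 and 9, and the low libraries 3.72, 3.64, 3.04 and 2.86 in replicates 2, 4, 8 and 6. The means were 5.05 ± 0.29 and 4.12 ± 0.48 in WT and 4.01 ± 0.32 and 3.32 ± 0.43 in R6/1 (SD, n = 4 each). The scores showed no gap at the dividing lines, but their steps were unequal. WT replicate 4 (3.43) stood below the next library at 4.22. R6/1 replicates 8 and 6 (3.04 and 2.86) stood below the next at 3.64. The library left out in the middle, WT replicate 1, lay 0.093 below the nearest high and 0.033 above the nearest low library, and R6/1 replicate 5 lay 0.037 below and 0.0041 above its neighbours. High in R6/1 and high in WT were not the same level: 6 WT libraries scored above every R6/1 library, and 2 R6/1 libraries scored below every WT library.

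**Figure D1:**
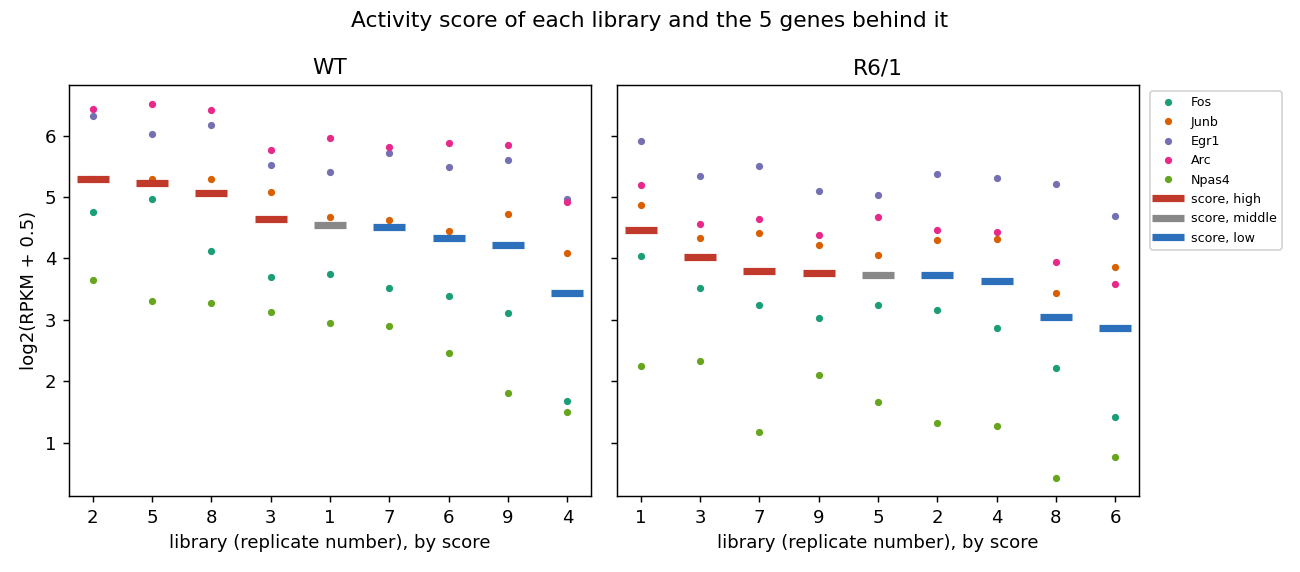
Score of each library (bars, log2 scale) and log2(RPKM + 0.5) of the 5 genes behind it (points), with the 9 libraries of WT and of R6/1 ordered by score and named by replicate number. The scores fall in unequal steps from 5.29 to 3.43 in WT and from 4.45 to 2.86 in R6/1. WT replicate 4 and R6/1 replicates 8 and 6 stand below the other libraries of their genotype.

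The 5 score genes are described here without a test, since they chose the libraries. Values are given in order of falling score: WT high replicates 2, 5, 8 and 3, WT low replicates 7, 6, 9 and 4, R6/1 high replicates 1, 3, 7 and 9, and R6/1 low replicates 2, 4, 8 and 6. Fos, a subunit of the AP-1 transcription factor, measured 26.6, 30.8, 17.0 and 12.5 RPKM in the WT high and 11.0, 9.95, 8.17 and 2.70 RPKM in the WT low libraries. In R6/1 it measured 15.99, 10.9, 9.00 and 7.62 RPKM in the high and 8.43, 6.80, 4.13 and 2.16 RPKM in the low libraries. Fos separated the libraries of WT and overlapped in R6/1. Npas4, a neuronal transcription factor that answers calcium entry, measured 12.1, 9.40, 9.19 and 8.24 RPKM against 6.95, 4.98, 2.99 and 2.31 RPKM in WT. In R6/1 it measured 4.25, 4.53, 1.75 and 3.80 RPKM against 1.99, 1.90, 0.846 and 1.20 RPKM. The 2 lowest-scoring R6/1 libraries held the least Npas4 of all 18. Arc, a synaptic protein that drives the removal of AMPA receptors, measured 86.1, 91.3, 85.1 and 54.1 RPKM against 55.8, 58.3, 56.8 and 29.9 RPKM in WT. Its R6/1 values were 36.3, 23.2, 24.5 and 20.4 RPKM against 21.6, 21.0, 14.8 and 11.5 RPKM. Arc overlapped between high and low libraries in both genotypes, and WT replicate 3 lay below 3 of the 4 WT low libraries. Junb, another AP-1 subunit, measured 38.5, 38.9, 38.7 and 33.5 RPKM against 24.1, 21.2, 26.0 and 16.6 RPKM in WT and 28.6, 19.7, 20.7 and 18.0 RPKM against 19.2, 19.5, 10.3 and 13.9 RPKM in R6/1. Egr1, a zinc finger transcription factor, measured 79.0, 64.6, 71.9 and 45.3 RPKM against 51.9, 44.2, 48.1 and 30.6 RPKM in WT and 59.9, 40.1, 45.1 and 33.8 RPKM against 41.1, 39.2, 36.4 and 25.2 RPKM in R6/1. Junb separated the WT libraries, while Egr1 overlapped in both genotypes.

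The libraries held between 12299434 and 16736544 reads on genes. High and low libraries spanned 12299434 to 15511365 and 12416748 to 16457022 reads in WT, and 13260311 to 16736544 and 14728921 to 16076145 reads in R6/1. The labels name no batch for the RNA libraries and give an RNA integrity number of 9 to 10. Markers of the hippocampal fields were present throughout, with a mean over the 18 libraries of 12.7 RPKM for Prox1 of dentate granule neurons and 30.7 RPKM for Wfs1 of CA1 neurons. Choroid plexus, which is not hippocampal tissue, was present in unequal amounts: its 12 markers summed to 82.7 to 1352 RPKM in the WT high, 89.4 to 747 in the WT low, 86.6 to 2089 in the R6/1 high and 381 to 1265 in the R6/1 low libraries.

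With genotype in the fit, most other rapid activity-regulated genes had a higher mean in the high libraries, but no gene passed the test. In limma with Benjamini-Hochberg adjustment, 0 of 14441 genes were called higher (0%) and 0 lower (0%), with a smallest adjusted p of 0.917, and 463 genes (3.21%) had an unadjusted p under 0.05. Of the 32 genes of a rapid activity-regulated list 31 were measured above the filter, all but Atf3. The mean was higher in the high libraries for 29 of these 31, where 48.9% of all tested genes were higher and 51.1% lower. Their median difference was 0.20 on the log2 scale, against -0.0014 over all tested genes. An unadjusted p under 0.05 with a higher mean was found for 14 of 31 (45.2%), where 1.8% of all tested genes had one (1.41% had one with a lower mean), and 12 of the 31 were among the 100 genes with the smallest p. The mean was higher in WT and in R6/1 alike for 19 of 31, where 23.5% of tested genes were. Since no gene of the list was called, the genes described next were taken in order of unadjusted p after their values were seen.

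Gadd45b, which takes part in DNA repair and activity-induced DNA demethylation, had the smallest p of all genes. It measured 8.84, 9.89, 8.15 and 8.86 RPKM in the WT high and 6.22, 6.51, 6.15 and 6.14 RPKM in the WT low libraries, with no overlap. In R6/1 it measured 6.05, 5.55, 6.55 and 6.89 RPKM against 6.05, 4.97, 4.38 and 5.67 RPKM, which overlapped. The difference was 0.36 (SE 0.068) on the log2 scale with a limma adjusted p of 0.917. Its relative Gadd45g measured 10.1, 11.2, 10.5 and 12.4 RPKM against 8.76, 9.55, 6.84 and 7.25 RPKM in WT, again apart, and 8.67, 9.62, 7.27 and 8.47 RPKM against 7.81, 6.74, 7.22 and 8.62 RPKM in R6/1, a difference of 0.29 (SE 0.081). Cyr61, a secreted matrix protein also known as Ccn1, measured 10.3, 14.1, 3.94 and 2.79 RPKM against 3.35, 2.39, 2.93 and 2.15 RPKM in WT. WT replicates 2 and 5 carried its WT difference. In R6/1 it measured 3.87, 4.45, 2.65 and 2.40 RPKM against 2.36, 1.89, 1.60 and 1.91 RPKM, where the lowest high library was just above the highest low library, and its difference with genotype in the fit was 0.88 (SE 0.25).

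Among tested genes, 168 separated the 4 high from the 4 low libraries upward in WT (1.16%) and 108 in R6/1 (0.748%), and 190 (1.32%) and 115 (0.796%) downward. On the rapid list these were Gadd45b, Gadd45g and Egr4, upward in WT, Cyr61, upward in R6/1, and Sgk1, downward in R6/1. One gene of all 14441 (0.00692%) separated them upward in both genotypes, and 0 genes downward (0%). That gene was Parp11, a mono-ADP-ribosyltransferase that is on none of the lists. It measured 4.94, 5.58, 5.58 and 5.42 RPKM against 4.30, 4.89, 4.81 and 4.60 RPKM in WT and 6.93, 6.56, 7.08 and 6.85 RPKM against 6.23, 5.92, 5.70 and 5.96 RPKM in R6/1. The difference of Parp11 was 0.19 (SE 0.042) on the log2 scale, with a limma adjusted p of 1.00. Differences above 1 in size were found for 7 genes, none of them called. Of these 6 were microRNA or snoRNA genes with a mean of 0.938 to 6.62 reads, and the seventh was Pttg1, a regulator of chromatid separation. Pttg1 stood at 0.15 and 0.29 RPKM in WT high replicates 3 and 5 and at 0.20 RPKM in R6/1 high replicate 3, and between 4.45 and 10.95 RPKM in the other 13 libraries compared.

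**Figure D2:**
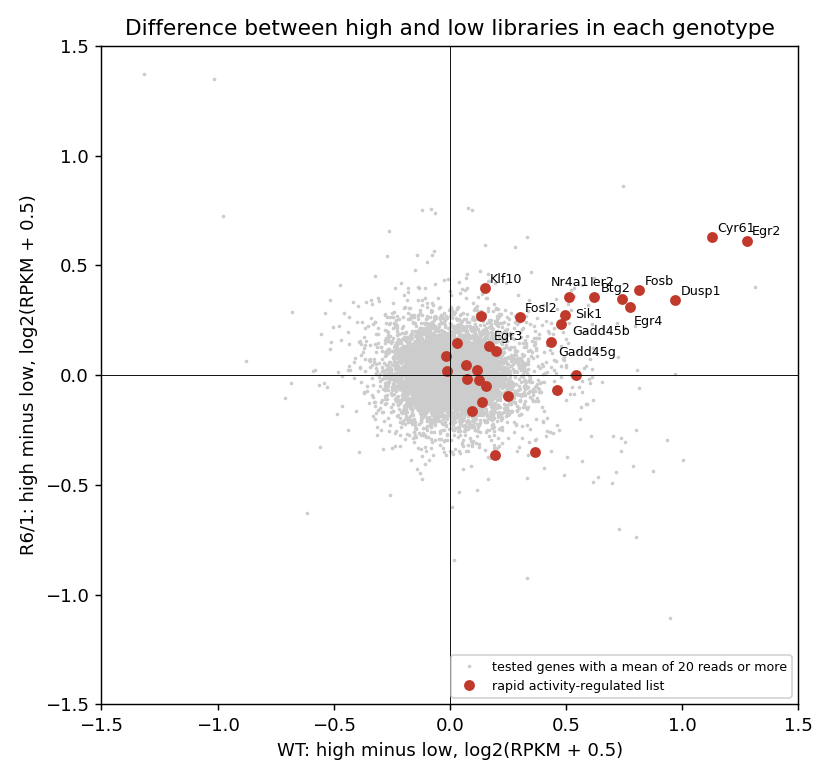
Difference between high and low libraries on the log2(RPKM + 0.5) scale in WT (horizontal) and in R6/1 (vertical), for tested genes with a mean of 20 reads or more (grey; 2 lie outside the axes) and for the 31 tested genes of the rapid list (red; names for those with an unadjusted p under 0.05). Most of the named genes lie up and to the right of the grey cloud, farther along the WT axis than along the R6/1 axis. The scores of high and low libraries also lay farther apart in WT.

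The score was also used as a number over all 18 libraries with genotype in the fit, which keeps the distances that the split discards. Of 14441 genes 7 rose with the score (0.0485%) and 0 fell (0%). All 7 were on the rapid list: Btg2, Dusp1, Egr2, Nr4a1, Egr4, Fosb and Ier2. The slopes below are log2 changes per unit of score, where a unit is a doubling of the geometric mean of the score genes. They and the adjusted p come from limma with Benjamini-Hochberg adjustment over all tested genes.

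The promoters of these genes are shown because the genes moved together and because the cAMP response element to which CREB binds is the best known activity element of this class. Each line gives the 250 bases before the RefSeq start on build GRCm38.p6, read in the direction of the gene. Capitals mark TGACG, the core of that element, on either strand, so a full palindrome TGACGTCA appears as a single capital run. Egr2 has 5 starts in the table, of which 3 held 2 cores each and 2 held none, and 1 of those 3 is shown. Ier2 had no entry.
Btg2 (chr1:134079156-134079405, minus strand): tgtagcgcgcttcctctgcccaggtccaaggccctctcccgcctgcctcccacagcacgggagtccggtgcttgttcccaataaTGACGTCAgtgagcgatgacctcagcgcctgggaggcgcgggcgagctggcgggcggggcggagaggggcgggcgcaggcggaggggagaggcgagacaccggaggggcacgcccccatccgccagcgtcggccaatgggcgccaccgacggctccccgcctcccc
Dusp1 (chr17:26508473-26508722, minus strand): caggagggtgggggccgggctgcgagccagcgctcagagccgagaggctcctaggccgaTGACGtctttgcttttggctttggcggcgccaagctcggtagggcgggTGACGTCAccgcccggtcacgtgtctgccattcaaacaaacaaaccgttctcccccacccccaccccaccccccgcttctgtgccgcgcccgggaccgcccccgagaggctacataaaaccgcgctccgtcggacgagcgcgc
Egr2 (chr10:67537619-67537868, plus strand): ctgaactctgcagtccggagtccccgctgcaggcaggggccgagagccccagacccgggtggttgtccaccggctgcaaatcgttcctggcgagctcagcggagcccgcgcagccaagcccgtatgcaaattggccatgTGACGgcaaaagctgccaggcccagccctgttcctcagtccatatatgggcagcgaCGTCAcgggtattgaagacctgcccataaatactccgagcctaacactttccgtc
Nr4a1 (chr15:101266596-101266845, plus strand): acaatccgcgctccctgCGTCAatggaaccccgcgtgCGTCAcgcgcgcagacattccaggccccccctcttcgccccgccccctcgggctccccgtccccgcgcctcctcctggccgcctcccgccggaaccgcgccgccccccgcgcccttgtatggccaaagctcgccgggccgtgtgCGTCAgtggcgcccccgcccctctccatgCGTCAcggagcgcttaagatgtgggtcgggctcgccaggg
Egr4 (chr6:85513590-85513839, minus strand): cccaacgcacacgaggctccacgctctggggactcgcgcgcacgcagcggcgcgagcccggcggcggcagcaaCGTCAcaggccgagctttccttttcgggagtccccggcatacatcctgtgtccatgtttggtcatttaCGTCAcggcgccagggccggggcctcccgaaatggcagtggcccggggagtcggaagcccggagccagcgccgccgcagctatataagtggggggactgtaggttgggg
Fosb (chr7:19310046-19310295, minus strand): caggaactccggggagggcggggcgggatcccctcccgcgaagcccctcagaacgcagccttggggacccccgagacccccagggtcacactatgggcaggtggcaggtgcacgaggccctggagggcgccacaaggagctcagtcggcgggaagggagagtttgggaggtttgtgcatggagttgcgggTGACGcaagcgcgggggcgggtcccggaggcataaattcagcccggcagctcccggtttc
The core was present before the start of all 6 matched genes of the 7, of 16 of the 26 matched genes of the rapid list (61.5%), and of the 3 score genes with an entry that were searched (Fos, Junb and Npas4). It was present in 29.7% of 10905 matched tested genes and in 19.8% of the 27025 genes of the table, counting a gene with several starts once if any start held it. The full TGACGTCA was found in Btg2 and Dusp1, and in 3.06% of matched tested genes. The site of the EGR factors, GCGNGGGCG, was found in 3 of the 6 genes, in 10 of 26 matched genes of the rapid list (38.5%) and in 10.6% of matched tested genes. The AP-1 site TGANTCA was found in 0 of the 6, in 1 of 26 of the rapid list and in 5.38% of matched tested genes. All motifs were searched on both strands. Egr2 also held a CArG box, the site of SRF, which 1.38% of matched tested genes held. These are matches of letters in short windows and not measured binding.

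Btg2, an antiproliferative regulator of messenger RNA decay, measured 14.5, 18.0, 9.38 and 8.76 RPKM in the WT high and 9.41, 7.95, 6.77 and 4.82 RPKM in the WT low libraries. In R6/1 it measured 7.42, 7.18, 5.59 and 5.33 RPKM against 5.37, 6.10, 4.16 and 4.07 RPKM. High and low libraries overlapped at their border in both genotypes, and WT replicates 2 and 5 were the highest. It rose by 0.72 (SE 0.084) per unit of score with an adjusted p of 0.000421, while the split gave a difference of 0.54 (SE 0.16) and an adjusted p of 1.00. Dusp1, the phosphatase that inactivates MAP kinases in the nucleus, measured 23.3, 30.4, 17.5 and 12.8 RPKM against 11.2, 13.6, 10.0 and 6.34 RPKM in WT. In R6/1 Dusp1 measured 12.9, 12.8, 9.66 and 8.83 RPKM against 9.18, 10.4, 8.03 and 6.76 RPKM. WT replicates 2 and 5 stood above all other libraries. The slope of Dusp1 was 0.84 (SE 0.098) with an adjusted p of 0.000421, and its split difference 0.66 (SE 0.18).

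Egr2, a zinc finger factor of the Egr1 family, measured 4.16, 2.97, 3.78 and 0.910 RPKM against 1.11, 1.17, 0.975 and 0.210 RPKM in WT and 0.923, 0.481, 0.834 and 0.528 RPKM against 0.363, 0.514, 0.156 and 0.109 RPKM in R6/1. WT replicate 3 fell among the WT low libraries, and the other 3 WT high libraries lay above all others. Egr2 had the steepest slope of the 7, 1.17 (SE 0.14) with an adjusted p of 0.000602. In the lowest-scoring libraries Egr2 rested on few reads: 10 in WT replicate 4, and 5 and 7 in R6/1 replicates 6 and 8. Its relative Egr4 measured 14.9, 12.9, 13.2 and 11.2 RPKM against 7.50, 7.28, 7.84 and 6.87 RPKM in WT, with no overlap, and 17.4, 10.3, 11.0 and 8.22 RPKM against 10.7, 10.0, 7.46 and 8.34 RPKM in R6/1. The slope of Egr4 was 0.60 (SE 0.098) with an adjusted p of 0.0149. Egr4 was higher in R6/1 replicate 1 than in any WT library.

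Nr4a1, an orphan nuclear receptor, measured 41.5, 43.4, 43.1 and 23.4 RPKM against 27.6, 26.7, 31.2 and 18.5 RPKM in WT and 29.3, 18.4, 25.8 and 16.5 RPKM against 20.5, 19.1, 15.4 and 13.9 RPKM in R6/1. The other 3 WT high libraries stood together and replicate 3 fell within the low range. Its slope was 0.61 (SE 0.096) with an adjusted p of 0.0136. Fosb, the AP-1 subunit whose truncated form accumulates with repeated activity, measured 5.49, 6.13, 4.83 and 3.15 RPKM against 3.28, 2.14, 2.53 and 2.16 RPKM in WT and 7.23, 4.34, 4.12 and 3.54 RPKM against 3.79, 3.87, 3.52 and 2.67 RPKM in R6/1. Fosb did not stand lower in R6/1 than in WT, and its slope was 0.71 (SE 0.11) with an adjusted p of 0.0149. Ier2, an immediate early nuclear protein, measured 7.66, 8.15, 4.17 and 5.10 RPKM against 3.75, 4.50, 4.64 and 2.53 RPKM in WT and 3.84, 3.04, 3.53 and 2.13 RPKM against 2.91, 2.57, 2.43 and 1.49 RPKM in R6/1, with a slope of 0.64 (SE 0.11) and an adjusted p of 0.0187. High and low libraries of Ier2 overlapped in both genotypes.

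Btg2, Dusp1 and Egr2 were called in each of the 18 fits that left out 1 library. Egr4 and Nr4a1 were called in 14 and Fosb and Ier2 in 13 of these fits. The count fell from 7 to 3 without WT replicate 2, 4 or 5 or without R6/1 replicate 1, and to 5 without R6/1 replicate 6. It was 9 without WT replicate 3, with Cyr61 and Sik1 added, and 9 without WT replicate 8, with Cyr61 and Aif1 added. Without R6/1 replicate 5 it was 8, with Aif1 added. Aif1 is not on the rapid list. With the mean level of thalamus and habenula markers in the fit 3 of the 7 were called, again Btg2, Dusp1 and Egr2, while the smallest slope of the 7 was 0.53 in place of 0.60. Over all 18 libraries the next in order, and not called, was Cyr61 with a slope of 0.99 and a limma adjusted p of 0.0727. Aif1, a microglial calcium-binding protein, followed with a slope of 0.56 and an adjusted p of 0.0733.

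**Figure D3:**
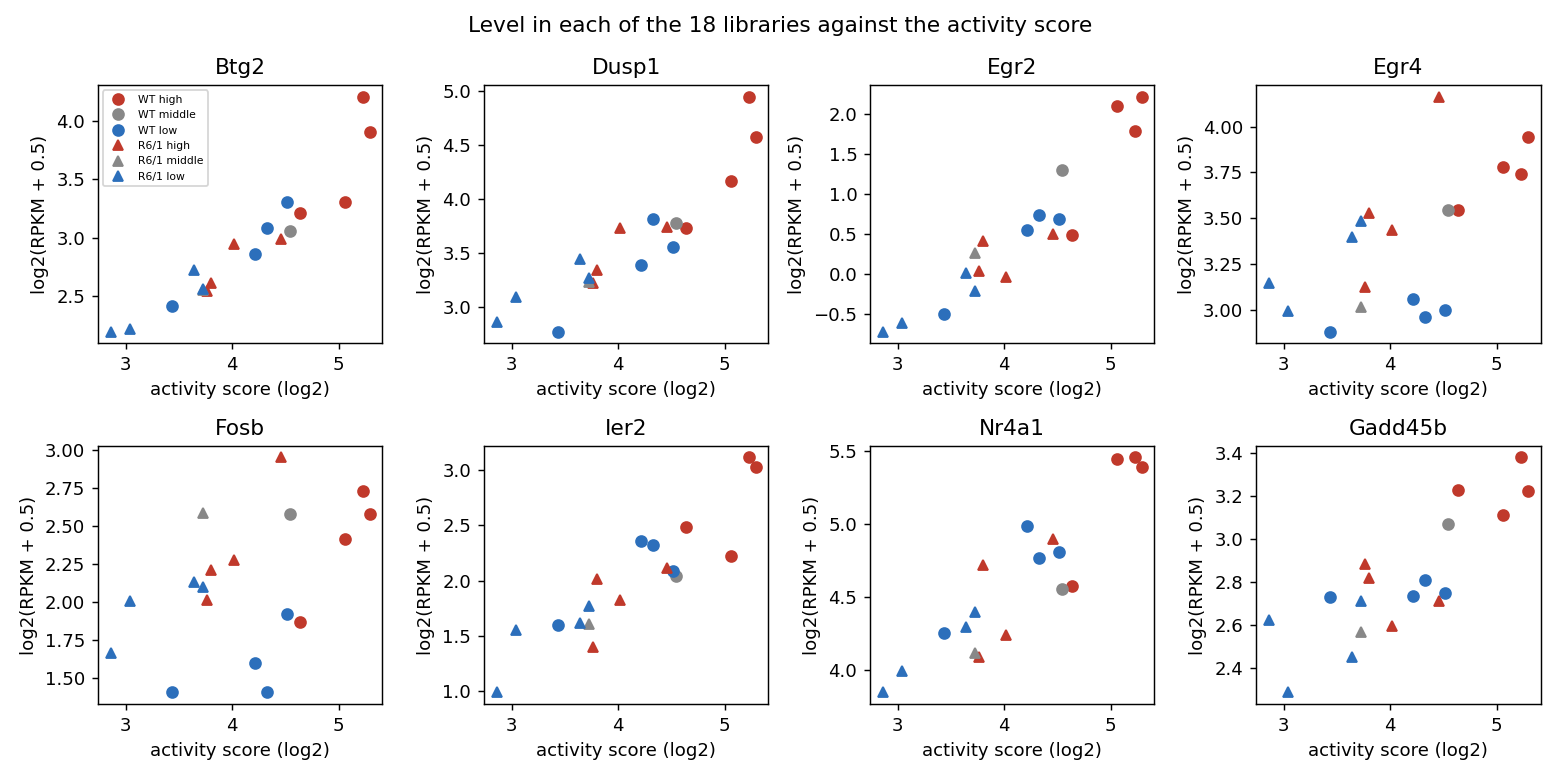
Level of the 7 genes that rose with the score, and of Gadd45b, against the score in each of the 18 libraries; both axes are on the log2(RPKM + 0.5) scale, circles are WT, triangles R6/1, and colour gives the high, middle and low libraries. In Btg2 and Egr2 the R6/1 and WT libraries lie along one band, while Fosb and Egr4 reach WT levels in R6/1 libraries of lower score. In Dusp1 R6/1 replicates 6 and 8 lie above WT replicate 4, which has a higher score.

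Within one genotype the split called 0 genes in WT (0%) and 0 in R6/1 (0%) in limma, with 633 and 325 genes at an unadjusted p under 0.05. The rapid list had a median difference of 0.25 in WT, with 29 of 31 higher, and of 0.13 in R6/1, with 21 of 31 higher. Over all tested genes the median difference was -9.2e-05 in WT and -0.0029 in R6/1. The scores of high and low libraries lay farther apart in WT (means 5.05 and 4.12) than in R6/1 (4.01 and 3.32). The difference in gene level was larger in WT for 26 of the 31 genes, and it was not scaled for the wider split. Over all tested genes the median size of the difference, without regard to sign, was also larger in WT, 0.066 against 0.053 in R6/1. The interaction of limma, which tests that contrast gene by gene, called 0 genes (0%), with 486 at an unadjusted p under 0.05, and its smallest adjusted p on the list was 0.999. With the score as a number within each genotype, limma called Dusp1 (slope 1.05, adjusted p 0.000146), Egr2 (1.43, 0.000483) and Btg2 (0.84, 0.000737) within WT (0.0208% of genes) and 0 genes within R6/1 (0%), where their slopes were 0.54, 0.78 and 0.54. The difference of slopes was called for 0 genes (0%), with 382 at an unadjusted p under 0.05, so a weaker relation in R6/1 was not shown.

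Sgk1, a kinase induced by glucocorticoids as well as by activity, was one of the 10 genes of the list with a lower mean in the R6/1 high libraries. It measured 16.2, 25.3, 18.9 and 16.9 RPKM in the WT high and 14.0, 22.2, 15.5 and 15.5 RPKM in the WT low libraries. In R6/1 it measured 33.2, 33.3, 33.7 and 23.2 RPKM in the high and 39.3, 37.0, 40.7 and 40.6 RPKM in the low libraries, so that all 4 high libraries lay below all 4 low ones. The interaction had an unadjusted p of 0.0176 and an adjusted p of 0.999 in limma. The middle library of R6/1, replicate 5, had 15.0 RPKM, the lowest of that genotype. Of 14 glucocorticoid-responsive genes 13 had a lower mean in the R6/1 high libraries (median -0.25, against -0.0029 over all tested genes). In the WT high libraries 11 of the 14 had a higher mean (median 0.08, against -9.2e-05 over all tested genes). Limma called 0 of them in either genotype. Fkbp5, a chaperone partner of the glucocorticoid receptor, differed by -0.18 in WT and -0.27 in R6/1.

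The slower wave stood closer to all tested genes. Of 25 tested genes of the delayed list (26 listed) 16 had a higher mean in the high libraries, with a median difference of 0.03 and 0 at an unadjusted p under 0.05. Nptx2, a pentraxin that gathers AMPA receptors, differed by 0.15 (SE 0.10), and Bdnf, the neurotrophin, by -0.0051 (SE 0.088). Of 16 genes of MAP kinase and G-protein feedback 12 had a higher mean, with a median of 0.03. Among them Rgs4 and Rgs2, which speed up the shut-off of G proteins, had differences of 0.13 (SE 0.051) and 0.10 (SE 0.043) with unadjusted p of 0.0192 and 0.0317, and Dusp6, the ERK phosphatase of the cytoplasm, 0.13 (SE 0.073). Transcription factors that act upstream, such as CREB, SRF and MEF2 family members, had a higher mean in 6 of 16, with a median of -0.0070. Heat shock genes, which answer cell stress, had a higher mean in 6 of 14 (median -0.0061) and circadian clock genes in 8 of 16 (median -0.0057).

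**Figure D4:**
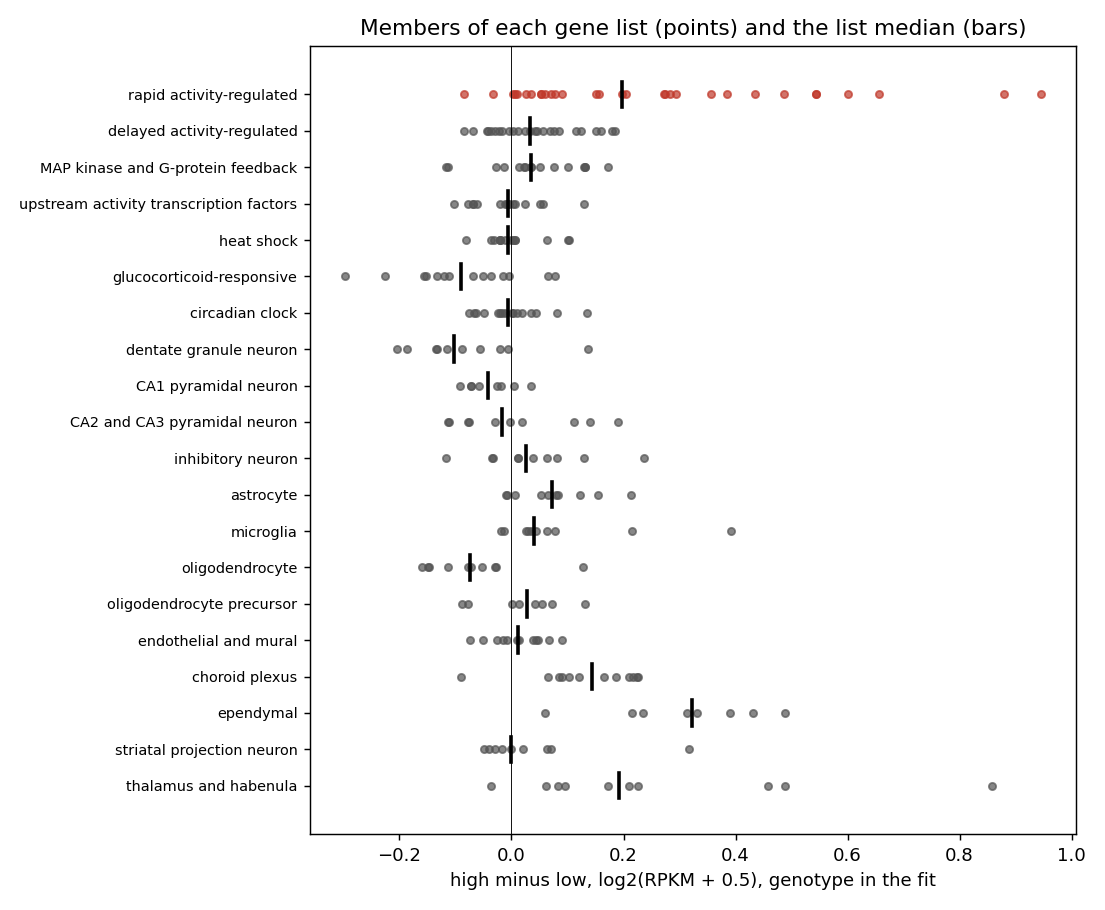
Difference between high and low libraries, with genotype in the fit, on the log2(RPKM + 0.5) scale for each tested member of 20 gene lists (points) and the median of each list (bars). As a list the ependymal markers (median 0.32) lie farthest to the right. The rapid activity-regulated list (red, median 0.20) and the thalamus and habenula list (median 0.19) follow close together.

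Limma called 0 markers of any cell type or other tissue between high and low libraries, and their summed levels overlapped. Since these are bulk samples, fewer cells of a type and less RNA per cell cannot be told apart. All 8 ependymal markers had a higher mean in the high libraries, with a median difference of 0.32. Foxj1, the ciliogenesis factor, differed by 0.31 (SE 0.20) and Cfap126, a cilium protein, by 0.43 (SE 0.19). Their summed level ranged from 8.72 to 37.6 RPKM in the WT high and from 9.05 to 20.3 RPKM in the WT low libraries, and from 8.90 to 19.8 against 9.92 to 14.1 RPKM in R6/1. Of 10 thalamus and habenula markers 9 had a higher mean (median 0.19). In WT alone 6 of 10 were higher (median 0.03), and in R6/1 9 of 10 (median 0.27). With the score as a number 9 of the 10 markers had a positive slope (median 0.30, against 0.22 for the rapid list), and 0 were called. Within WT 8 of the 10 markers had a positive slope (median 0.33), and within R6/1 7 of the 10 markers (median 0.20). Their summed levels in WT were 51.7 to 102.9 against 44.8 to 99.7 RPKM. In R6/1 they were 35.8 to 49.8 against 31.3 to 38.8 RPKM. With genotype in the fit the largest difference of the 10 was that of Tac2, 0.86. Tac2, a tachykinin peptide of the habenula, measured 8.44, 13.0, 4.48 and 2.86 RPKM against 3.16, 1.72, 2.00 and 2.11 RPKM in WT and 1.79, 1.61, 1.56 and 1.02 RPKM against 0.812, 0.899, 1.12 and 1.17 RPKM in R6/1. Its highest values were in WT replicates 5 and 2, the libraries that were also highest in Dusp1 and Cyr61. The part of this tissue in the differences of the rapid list was not tested beyond the fit with its markers as a covariate, in which 25 of 31 rapid genes had a higher mean and the median was 0.17. Of 12 choroid plexus markers 11 had a higher mean with genotype in the fit (median 0.14), but 12 were higher in WT (median 0.65) and 10 lower in R6/1 (median -0.30), and the median turned negative under 7 of 40 alternatives. With the score as a number 11 of the 12 markers had a positive slope (median 0.21), and 0 were called. Positive slopes were found for 10 of the 12 markers within WT (median 0.20) and for all 12 markers within R6/1 (median 0.27). With their mean level in the fit 28 of 31 rapid genes had a higher mean and the median was 0.17.

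Lists of hippocampal neurons and glia had medians between -0.10 and 0.07. Dentate granule markers had a lower mean in the high libraries for 9 of 10 (median -0.10), with a median of -0.22 in WT and 0.02 in R6/1. With the score as a number 8 of the 10 markers had a negative slope (median -0.13), and 0 were called. Within WT all 10 markers had a negative slope (median -0.22), and within R6/1 4 of the 10 markers (median 0.03). Their summed level was 115.9 to 154.7 RPKM in the WT high and 126.9 to 170.9 RPKM in the WT low libraries. CA1 markers had a higher mean in 2 of 8 (median -0.04) and CA2 and CA3 markers in 4 of 10 (median -0.02). Inhibitory neuron markers had a higher mean in 7 of 10 (median 0.03). In WT alone 7 of 10 of these were higher (median 0.07), and in R6/1 3 of 10 (median -0.03). Sst, the somatostatin peptide of an interneuron class, differed by 0.24 (SE 0.082) with an unadjusted p of 0.00969. Astrocyte markers had a higher mean in 8 of 10 (median 0.07), microglia markers in 8 of 10 (median 0.04) and oligodendrocyte markers in 1 of 10 (median -0.07). Microglia markers were higher for 9 of 10 in WT (median 0.16) but for 5 of 10 in R6/1 (median -0.02). Aif1 had the largest difference of the 10 microglia markers with genotype in the fit, 0.39. With the score as a number over all 18 libraries, all 10 astrocyte and all 10 microglia slopes were positive (medians 0.12 and 0.13). In that fit 0 of them were called. Aif1 measured 7.46, 7.81, 5.21 and 7.04 RPKM against 6.39, 3.88, 4.77 and 3.05 RPKM in WT and 4.52, 4.89, 3.74 and 3.37 RPKM against 4.24, 4.69, 2.64 and 2.81 RPKM in R6/1. Precursors of oligodendrocytes (6 of 8 higher, median 0.03), endothelial and mural cells (7 of 12, median 0.01) and striatal projection neurons (4 of 9, median -0.00090) were near the median of all genes, and of the blood markers Alas2 alone passed the filter (-0.14, SE 0.19). The part of any of these cell types in the differences of the rapid list was not tested.

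The genotype is balanced over the split, so R6/1 was compared with WT on the same 16 libraries with the split in the fit. Limma called 3670 genes higher (25.4%) and 3455 lower (23.9%) in R6/1. On the rapid list 16 of 31 fell and 4 rose in R6/1, with a median of -0.24. Egr2 differed by -1.08 (SE 0.24, adjusted p 0.0014), Klf10, a TGF-beta-induced repressor, by -0.78 (SE 0.095, adjusted p 3.96e-06) and Jun by -0.75 (SE 0.10, adjusted p 1.05e-05). Of the 14 rapid genes with an unadjusted p under 0.05 in high against low 11 fell in R6/1, so high against low and WT against R6/1 ran the same way for them. Fosb and Egr4 were among the others, at 0.18 (SE 0.15, adjusted p 0.337) and 0.05 (SE 0.13, adjusted p 0.788). Maff, a small Maf factor, rose by 1.13 (SE 0.20, adjusted p 0.000142) and Sgk1 by 0.95 (SE 0.12, adjusted p 7.9e-06), while their differences between high and low libraries were 0.01 and -0.08. On the delayed list 15 of 25 fell and 0 rose (median -0.33), and on the feedback list 11 of 16 fell and 1 rose (median -0.30).

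**Figure D5:**
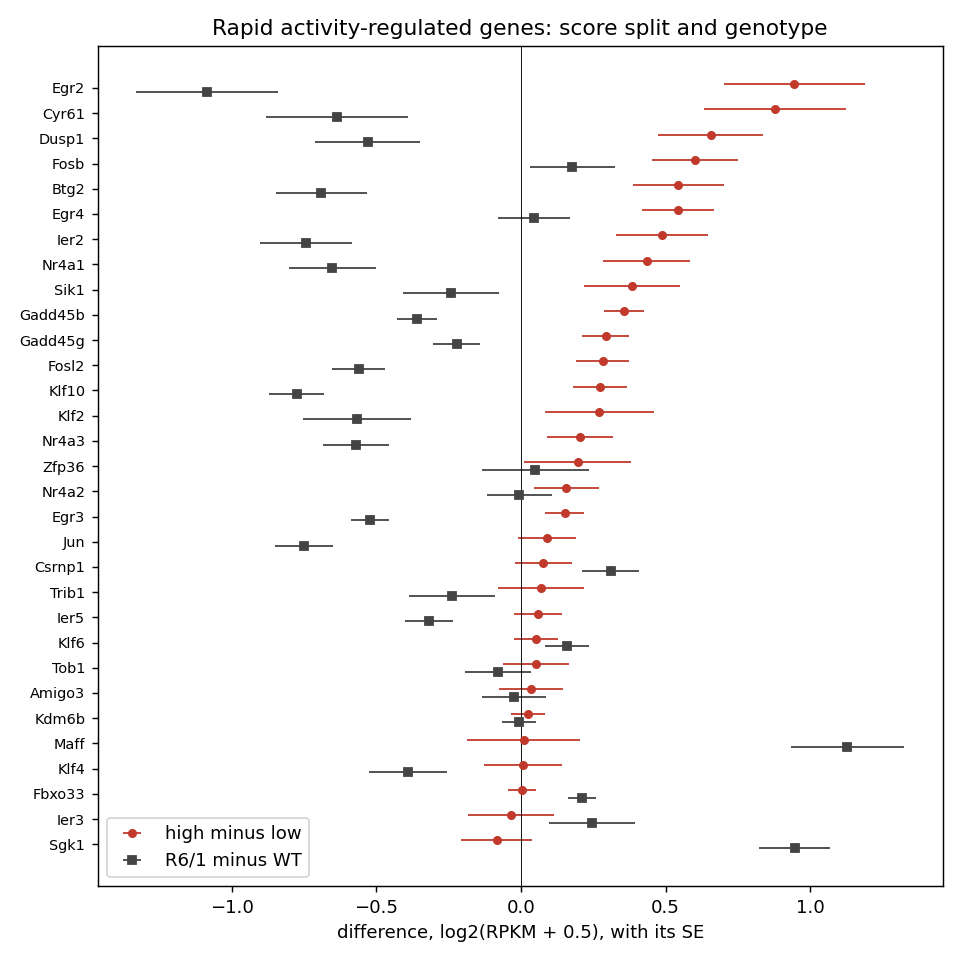
For the 31 tested genes of the rapid list, the difference between high and low libraries (red circles) and between R6/1 and WT (dark squares), each on the log2(RPKM + 0.5) scale with its SE from limma over the same 16 libraries. For most genes at the top the circles lie right and the squares left of 0; Fosb and Egr4 have squares near 0, and Maff and Sgk1 squares near 1.

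When the score itself was in the fit over 18 libraries, R6/1 was compared with WT at equal score. Only 3 of the 9 WT libraries scored within or below the R6/1 range, so this rests largely on the fitted line. Limma called 2481 genes higher (17.2%) and 2512 lower (17.4%). On the rapid list 7 were higher and 4 lower, with a median of -0.01 in place of -0.24. The score was lower in R6/1, so this fit moves R6/1 upward for any gene that rises with the score. Egr2, Btg2, Nr4a1, Fosb and Egr4 were among the 7 genes called for rising with it in the same libraries. Their shift at equal score was therefore partly built in and is given as a description. The score genes also did not differ alike between genotypes. Arc spanned 29.9 to 91.3 RPKM in WT and 11.5 to 36.3 RPKM in R6/1. Egr1 spanned 30.6 to 79.0 RPKM in WT and 25.2 to 59.9 RPKM in R6/1. Equal score is thus not an equal level of each score gene. A gene that differs as little as Egr1 can stand higher in R6/1 at equal score. The differences of Egr2, Btg2 and Nr4a1 at equal score were -0.01, -0.01 and -0.07 (adjusted p 0.963, 0.946 and 0.725). Fosb and Egr4 were higher in R6/1 at equal score by 0.81 and 0.53 (adjusted p 0.000523 and 0.00423), and Jun and Klf10 differed by -0.74 and -0.57 (adjusted p 0.00035 and 0.0019). On the delayed list limma called 15 of 25 lower and 0 higher at equal score (median -0.38). Ptgs2, the inducible cyclooxygenase, differed by -1.73 with the split and by -1.81 with the score in the fit (adjusted p 1.79e-08 and 1.14e-06). Bdnf differed by -0.85 and -0.93 (adjusted p 6.82e-07 and 4.28e-06), and Nptx2 by -1.32 and -1.16 (adjusted p 2.83e-08 and 2.67e-06). On the feedback list 6 were lower and 2 higher at equal score, among them Dusp4, a nuclear MAP kinase phosphatase, at -1.11 (adjusted p 2.15e-07).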

How the data were processed

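RNA libraries were made from hippocampal messenger RNA with a stranded kit, per the labels' protocols. Per the labels and notes, the authors deposited RPKM for 24508 gene symbols; the submitters' processing notes name TopHat, DESeq2 and build mm9, and the counting step is not given in the sources used here. Times the ratio of mean normalized count to mean RPKM in the authors' deposited table, 99.89% to 99.92% of a library's values were whole multiples of 1 read within 0.05 of a read, which gave the depth. Genotypes came from the labels. The authors' deposited table also holds that mean as a signal and log2 fold changes, test scores and p-values of R6/1 against WT, none of them used otherwise. Genes averaging 0.5 RPKM or more were tested on log2(RPKM + 0.5), which understates the change of low genes, with limma 3.58.1 (R 4.3.3; lmFit and eBayes with trend, two-sided), Benjamini-Hochberg over 14441 genes (the 5 score genes left out) and a threshold of 0.05; the code was checked on simulated data. No 2 libraries of a genotype agreed within sampling noise. The members and lists were chosen with earlier results of these data known. Genes were to be named when called in the split, which called none, so the genes named from the rapid, delayed and feedback lists, Parp11, Pttg1 and Aif1 were chosen after their values were seen; the other lists give examples in order of p.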

Additional observations from a re-analysis of the deposited data

Results flagged for a closer look

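The values given for 19 genes were checked in 76 sets of 4 libraries. In these sets 5 single values stood apart from the other 3 by more than Dixon's 95% limit. Chance gives about 1 in 20 where sets are formed without regard to the values. Here the sets were formed by the score. The genes were score genes, genes that rose with the score, or genes chosen after their values were seen. The share of 1 in 20 therefore does not apply, and all 5 values are given as a description. Of these 3 were WT replicate 3, the lowest of the WT high libraries: Junb at 33.5 RPKM (nearest other 38.5), Arc at 54.1 RPKM (85.1) and Nr4a1 at 23.4 RPKM (41.5). WT replicate 4 had 29.9 RPKM of Arc among the WT low libraries (55.8), and R6/1 replicate 9 had 23.2 RPKM of Sgk1 among the R6/1 high libraries (33.2).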

How the results depend on the processing

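The split called 0 genes under all alternatives run but 2: the score as a number gave 7 and the replicate block 2 (Mir9-2 at 0.84 and Snhg6 at -0.61, adjusted p 0.0327 each). Same-numbered libraries of WT and R6/1 correlated weakly, from -0.053 to 0.24, and above 0.1 in 3 of 9 pairs. Of the WT libraries 2 of 9, replicates 1 and 3, correlated best with their own number. Whether libraries of the same number shared a batch was not tested. Leaving out each library gave 0 to 0 calls in high against low, 0 to 1 within WT, 0 to 0 within R6/1, 0 to 1 in the interaction and 6734 to 7062 between genotypes. The single call was Ndn without WT replicate 8 (1.06 within WT, adjusted p 4.31e-05; interaction -1.04, adjusted p 0.0037): Ndn, an imprinted gene, was at 55.1 to 64.9 RPKM in WT replicates 4, 6, 7, 8 and 9 and at 119 to 141 RPKM in the other WT libraries. The score as a number within WT gave 3 calls. Over 18 libraries it gave 3 with the thalamus and habenula covariate and 3 to 9 with each library left out; these fits, voom on the recovered reads, the fit without short RNA rows and the fit without the 3 lowest libraries were chosen after seeing the data. Over 40 alternatives 25 to 30 rapid genes had a higher mean, with medians of 0.15 to 0.25; without WT replicate 4 and R6/1 replicates 6 and 8 they were 26 and 0.18. The ependymal median ranged from -0.02 (replicate block) to 0.46, the choroid plexus median from -0.44 (replicate block) to 0.41, with 0 to 12 of 12 genes higher, and the thalamus and habenula median from -0.09 (its own covariate, the one alternative with a negative median) to 0.36. Of 2272 values of 57 named genes 28 changed sign, none of them called. With the replicate block these were Bag3 (-0.14), Bhlhe41 (0.0070), Calb1 (0.0349), Foxj1 (-0.0954), Hspa1a (-0.0385), Man1a (0.0449), Pde10a (0.0787), Pou3f1 (0.0539), Prlr (-0.16), Rgs14 (0.0134) and Slc4a5 (-0.46). With the score standardised per gene they were Alas2 (0.0555), Aqp4 (-0.0161), Arrdc2 (0.0368), Pdgfrb (-0.0108) and Sgk1 (0.18). With a gene left out of the score they were Alas2 without Npas4 (0.0079), Rgs5 without Junb and without Egr1 (0.0220 each), and Sgk1 without Fos (0.0015), Arc (0.0857) or Npas4 (0.10). With the score as a number they were Alas2 (0.0268) and Rgs5 (0.0055). Slc4a5 gave -0.03315 to 0.442 with each library left out (lowest without R6/1 replicate 3), -0.0770 with voom and -0.0140 with the thalamus and habenula covariate, and Bag3 -0.0180 without the 3 lowest libraries. Causes were not tested. Count models (edgeR, DESeq2) were not run, since the deposited unit is RPKM.

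The 4 libraries on each side of a genotype and a continuous score limit what the split can show, and leaving out one score gene placed 2 to 4 libraries otherwise, between the middle and a side, except that without Npas4 R6/1 replicates 2 and 9 exchanged sides.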
